A study of Homo sapiens with 3 samples.

Results

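The Notch pathway genes described here over 3 RNA sequencing libraries are 10: the receptors NOTCH1, NOTCH2 and NOTCH3, the ligands JAG1 and JAG2, the glycosyltransferase LFNG, the DNA-binding factor RBPJ, and the target genes HES1, HEY1 and NRARP. They were taken by name from the deposited table, in which all 10 of the 10 named genes had a row among 16662 genes. All 10 also passed the expression filter, a mean of at least 1 CPM, as did 13879 genes in all. CPM is a gene's read count scaled to the size of its library, here with TMM factors.

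The cells were H1975, a human lung adenocarcinoma line with mutant EGFR. There was 1 library each from cells given the control siRNA (siNC), siHHLA3-1 or siHHLA3-3, the last 2 being differently numbered siRNAs against HHLA3. Transfection was done near 70% confluency, with 6 h in medium lacking serum and then 24 h with 10% serum. No group had a replicate and the labels put each library in a batch of its own, so siRNA, batch and library cannot be told apart, and no difference below has a replicate check. Values given in threes stand in the order siNC, siHHLA3-1, siHHLA3-3. Gene positions were looked up by gene ID in GENCODE release 29 (GRCh38). Every interval is an exact 95% interval for counting error alone.

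In Notch signalling a ligand on one cell, such as a Jagged protein, pulls on a Notch receptor of its neighbour. The receptor is then cut by an ADAM protease and by gamma-secretase, and its intracellular part enters the nucleus and joins RBPJ and a Mastermind coactivator on target genes. HES1 and HEY1 encode repressors of the hairy/enhancer-of-split family, and NRARP encodes a small ankyrin-repeat protein that limits the activity of the Notch intracellular domain. All are classic readouts of the pathway, which in airway epithelium takes part in the choice between secretory and ciliated cell fates.

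The 250 bases before the RefSeq start sites of HES1 and NRARP are given because these target genes had very different values with siHHLA3-3. HES1 lies at chr3:194135898-194136147 on the plus strand and NRARP at chr9:137302272-137302521 on the minus strand of GRCh38.p14. Capitals mark TGGGAA, a form of the core of the sequence bound by RBPJ, searched on both strands (TTCCCA on the other). No other form of the core was searched or marked.
HES1: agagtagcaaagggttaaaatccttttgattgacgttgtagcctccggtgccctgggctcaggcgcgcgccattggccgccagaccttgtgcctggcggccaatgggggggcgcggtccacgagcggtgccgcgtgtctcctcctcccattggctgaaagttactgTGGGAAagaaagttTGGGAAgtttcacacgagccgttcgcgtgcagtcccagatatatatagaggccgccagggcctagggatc
NRARP: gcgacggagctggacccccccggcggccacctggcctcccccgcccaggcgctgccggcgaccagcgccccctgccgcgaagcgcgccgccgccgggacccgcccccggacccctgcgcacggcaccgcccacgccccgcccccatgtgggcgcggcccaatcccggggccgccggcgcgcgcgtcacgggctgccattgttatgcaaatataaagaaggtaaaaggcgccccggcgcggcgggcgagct
The HES1 window held 2 matches, which began 84 and 70 bases before the start, and the NRARP window held none. Of all 35116 RefSeq windows of this length, 20.8% held at least 1 match. Windows were found for 9 of the 10 genes, and 3 of their 14 windows held a match: that of HES1 and 1 each of LFNG and RBPJ. A match is a string of letters and not a measured binding site.

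HHLA3 was lower in both knockdown libraries, at 192 counts with siNC, 55 with siHHLA3-1 and 20 with siHHLA3-3. Library totals were 26950852 to 35069930 reads, and 3 counts corresponded to 0.0845 to 0.110 CPM. Epithelial and lung adenocarcinoma markers had values for 8 of 9 genes, with a summed level of 4179 to 5142 TPM. TPM is the deposited level per gene length, and genes are compared with each other on that scale only. The lung lineage factor NKX2-1 stood at 71.0 TPM with siNC, 81.0 with siHHLA3-1 and 39.5 with siHHLA3-3. Leukocyte markers had values for 2 of 6 genes (20.0 to 25.1 TPM summed), endothelial markers for 2 of 6 (2.89 to 12.8 TPM) and fibroblast markers for 1 of 6 (4.27 to 9.70 TPM). The defining markers PTPRC and PECAM1 were without values here. The endothelial sum was mostly CDH5 (11.2 TPM with siHHLA3-1), and the fibroblast value was COL1A1 alone. Both were highest with siHHLA3-1, and their part in the values below was not tested. In such bulk RNA, fewer cells of a type and less RNA per cell cannot be told apart.

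Per length, the ligands were the most abundant of the 10 genes and HEY1 the least by mean. JAG2 ranged from 100.8 to 105.8 TPM over the libraries and JAG1 from 55.7 to 88.7 TPM, without overlap. NOTCH3 followed at 39.2 to 52.6 TPM, below the range of JAG1. NOTCH2 at 34.0 to 36.1 TPM lay within the range of HES1, 29.6 to 38.9 TPM, so their order was not separated. NOTCH1 (22.4 to 25.6 TPM) overlapped RBPJ (17.5 to 25.5 TPM), which overlapped LFNG (10.1 to 19.7 TPM), which overlapped HEY1 (9.45 to 16.0 TPM). NRARP spanned 15.6 to 75.1 TPM. It ranked ninth of the 10 with siNC and with siHHLA3-1, and stood behind JAG2 alone with siHHLA3-3.

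**Figure D1:**
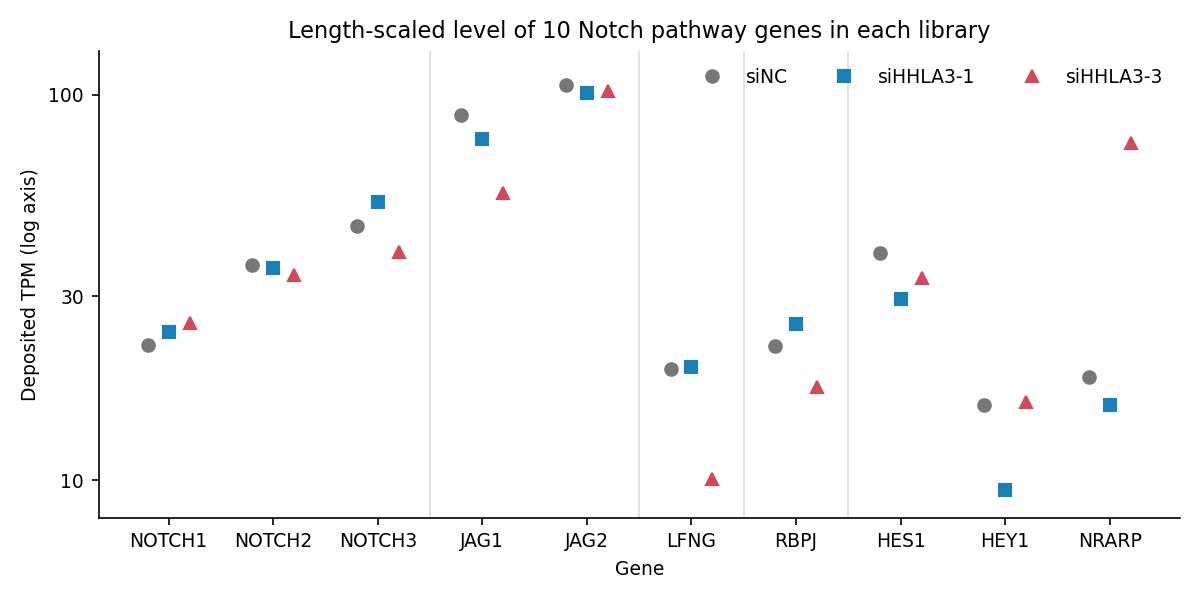
Deposited TPM (log axis) of each of the 10 genes, with 1 marker per library: grey circles for siNC, blue squares for siHHLA3-1 and red triangles for siHHLA3-3. NRARP moved from 18.5 TPM with siNC to 75.1 TPM with siHHLA3-3, while JAG1 and LFNG were lowest there.

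Among the 10 genes NRARP differed most between libraries. NRARP (ENSG00000198435) lies at chr9:137300482-137302251 on the minus strand, with no other annotated gene over it. The control library held 459 counts of it, 14.3 CPM (13.0 to 15.7), and the siHHLA3-1 library 412, 11.6 CPM (10.5 to 12.8). In the siHHLA3-3 library there were 1510 counts, 55.5 CPM (52.7 to 58.3). The siHHLA3-3 library was thus far above both others, which lay close together. NRARP was 3.88-fold higher with siHHLA3-3 than with siNC (3.49 to 4.31) and 4.78-fold higher than with siHHLA3-1 (4.28 to 5.34). With siHHLA3-1 it was 1.23-fold lower than with siNC (1.08 to 1.41). Among 11217 genes averaging 5 CPM or more, 10 had a higher ratio of siHHLA3-3 to siNC than NRARP.

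HES1 and HEY1 were not higher with siHHLA3-3 than with siNC. HES1 (ENSG00000114315, chr3:194136145-194138732) measured 23.4 CPM (752 counts, 21.8 to 25.2), 17.1 CPM (608 counts, 15.8 to 18.5) and 19.3 CPM (526 counts, 17.7 to 21.0). It was highest with siNC, and the intervals of the siHHLA3 libraries overlapped. HES1 was 1.37-fold lower with siHHLA3-1 (1.23 to 1.53) and 1.21-fold lower with siHHLA3-3 (1.08 to 1.36). HEY1 (ENSG00000164683, chr8:79764010-79767863) measured 25.2 CPM (808 counts, 23.5 to 27.0), 14.6 CPM (517 counts, 13.3 to 15.9) and 24.5 CPM (668 counts, 22.7 to 26.5). The siHHLA3-1 library stood apart as the low one. HEY1 was 1.73-fold lower there than with siNC (1.55 to 1.94), and its ratio of siHHLA3-3 to siNC was 0.974 (0.878 to 1.08). Against siHHLA3-1, siHHLA3-3 had 1.69-fold more HEY1 (0.59 to 0.92 on the log2 scale) and 1.13-fold more HES1 (1.002 to 1.27). The 3 targets therefore had 3 patterns: NRARP high with siHHLA3-3, HEY1 low with siHHLA3-1, and HES1 somewhat lower with each.

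The receptors differed little. NOTCH1 (ENSG00000148400, chr9:136494433-136545786) measured 82.0, 85.6 and 89.7 CPM, with ratios to siNC of 1.04 (0.989 to 1.10) and 1.09 (1.03 to 1.16). NOTCH2 (ENSG00000134250, chr1:119911553-120069626) stood at 210.5, 198.5 and 189.6 CPM, with ratios of 0.943 (0.912 to 0.975) and 0.901 (0.869 to 0.934). NOTCH2 has near-identical partial copies, the NOTCH2NL genes, with which reads may be shared, so its value is uncertain. NOTCH3 (ENSG00000074181, chr19:15159038-15200981), itself a known Notch target as well as a receptor, stood at 125.7, 138.9 and 103.1 CPM. Its ratios were 1.11 with siHHLA3-1 (1.06 to 1.15) and 0.820 with siHHLA3-3 (0.782 to 0.861), so the siHHLA3 libraries lay on either side of siNC. As a share of the summed TPM of the 3 receptors, NOTCH3 took 43.8% with siNC, 46.8% with siHHLA3-1 and 39.7% with siHHLA3-3.

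Of the ligands, JAG1 was lower with siHHLA3-3 and JAG2 was nearly level. JAG1 (ENSG00000101384, chr20:10637684-10673999) had 7735, 7109 and 3946 counts, or 241.1 CPM (235.8 to 246.6), 200.2 CPM (195.6 to 204.9) and 144.9 CPM (140.4 to 149.5). None of these intervals overlapped. It was 1.20-fold lower with siHHLA3-1 (1.17 to 1.24) and 1.66-fold lower with siHHLA3-3 (1.60 to 1.73). JAG2 (ENSG00000184916, chr14:105140981-105168824) stood at 197.9, 181.0 and 183.1 CPM, with ratios to siNC of 0.915 (0.883 to 0.947) and 0.925 (0.891 to 0.960). JAG1 made up 45.6% of the summed TPM of both Jagged ligands with siNC, 43.2% with siHHLA3-1 and 35.3% with siHHLA3-3.

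LFNG and RBPJ were also lowest with siHHLA3-3. LFNG, which encodes the fringe enzyme that extends O-fucose on Notch and alters which ligands activate it, is ENSG00000106003 at chr7:2512529-2529177. Its counts were 637 (19.9 CPM, 18.3 to 21.5), 685 (19.3 CPM, 17.9 to 20.8) and 267 (9.81 CPM, 8.67 to 11.1). The first 2 libraries overlapped and the third lay well below them, 2.02-fold lower than siNC (1.75 to 2.34). On the log2(CPM + 1) scale used for counting genes its ratio was -0.95, just inside the 2-fold threshold of 1. The other fringes, MFNG and RFNG, had ratios of 0.13 and 0.30 on that scale, and the interval of MFNG included 1. The share of LFNG in the summed TPM of the 3 fringes was 45.1%, 40.6% and 25.6%. RBPJ (ENSG00000168214, chr4:26163455-26435131) measured 70.6 CPM (67.8 to 73.6), 77.2 CPM (74.3 to 80.1) and 52.8 CPM (50.1 to 55.6), and was 1.34-fold lower with siHHLA3-3 than with siNC (1.25 to 1.43). NKX2-1 was also lowest in the siHHLA3-3 library, and its part in these values was not tested.

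**Figure D2:**
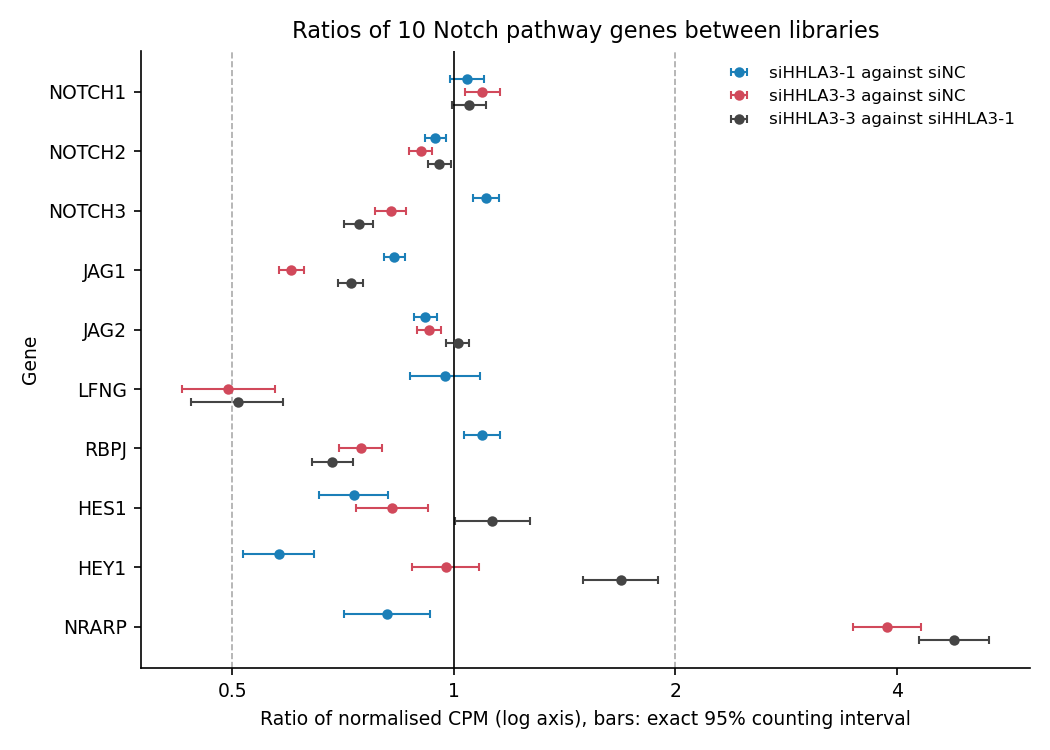
Ratio of normalised CPM between libraries (log axis) for each of the 10 genes, with exact 95% counting intervals as bars. Blue is siHHLA3-1 against siNC, red siHHLA3-3 against siNC and dark grey siHHLA3-3 against siHHLA3-1, and dashed lines mark 0.5 and 2. NRARP lies at 3.88 with siHHLA3-3 and LFNG near 0.5.

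A gene was counted as 2-fold higher or lower when its log2 ratio of (CPM + 1) reached 1 in size. The 10 genes were chosen with earlier results of these data known. The shares of all genes given here and below are therefore a backdrop and no test. With siHHLA3-1 against siNC, 0 of the 10 genes were 2-fold higher, where 0.973% of all filtered genes were, and 0 were 2-fold lower, where 0.382% were. With siHHLA3-3 against siNC, 1 of the 10 was higher, NRARP, against 0.807% of all genes, and 0 were lower, against 1.48%. Between the siRNAs themselves, siHHLA3-3 against siHHLA3-1, NRARP alone of the 10 was higher, against 0.757% of all genes, and 0 were lower, against 2.12%. At a 1.5-fold threshold the counts were 1 of 10 with siHHLA3-1 (HEY1, against 8.37% of all genes), 3 of 10 with siHHLA3-3 (NRARP, LFNG and JAG1, against 9.22%) and 3 of 10 between the siRNAs (NRARP, LFNG and HEY1, against 12.2%).

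The median log2 ratio of the 10 genes was -0.11 with siHHLA3-1 and -0.21 with siHHLA3-3, beside -0.01 and -0.01 for all filtered genes. Ratios above 0 were found in 3 of 10 genes with siHHLA3-1 (NOTCH1, NOTCH3 and RBPJ) and in 2 of 10 with siHHLA3-3 (NOTCH1 and NRARP), beside 48.2% and 48.5% of all filtered genes. Both comparisons share the siNC library, so their values are not independent. The direct comparison of the siRNAs, which does not use siNC, had a median of -0.02, beside 0.003 for all filtered genes. In that comparison 5 of the 10 genes were above 0 and 5 below, beside 50.4% of all filtered genes above 0. In it NOTCH3 was at -0.43, JAG1 at -0.46, RBPJ at -0.54 and LFNG at -0.91, while HEY1 was at 0.71 and NRARP at 2.16.

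**Figure D3:**
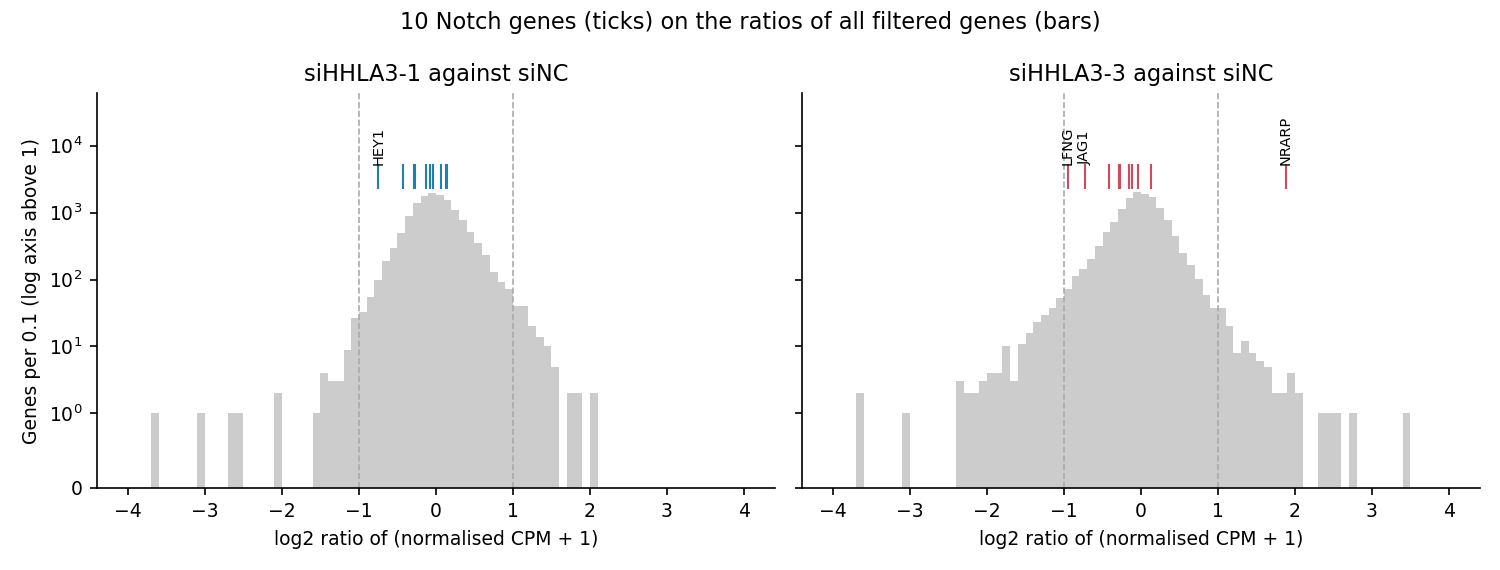
Distribution of the log2 ratio of (normalised CPM + 1) over 13879 filtered genes (grey bars of width 0.1, log axis above 1), for siHHLA3-1 (left) and siHHLA3-3 (right) against siNC. Ticks mark the 10 Notch genes, those past 0.7 in size are named, and dashed lines mark the 2-fold threshold; NRARP lies at 1.88 on the right.

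Taking both siHHLA3 libraries as 2 samples against siNC leaves 1 residual degree of freedom and assumes that the lone control varies like the others. Among the 10 genes, 0 had a mean of both ratios past 2-fold, against 0.735% of all genes. The quasi-likelihood test of edgeR called 0 of the 10 at an adjusted p under 0.05 (0.00721% of all genes) and DESeq2 called 0 (0.036%), and neither tool gave any of them an unadjusted p under 0.05. For NRARP edgeR gave an adjusted p of 1.00 and a log2 ratio of 1.23, the siHHLA3 libraries lying on either side of siNC.

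The pathway as a whole was read from 8 lists by role, with 72 genes including the 10 above, of which 61 had values and passed the filter. These lists, too, were chosen with earlier results of these data known. The 51 genes other than the 10 had a median log2 ratio of 0.07 with siHHLA3-1 and 0.06 with siHHLA3-3, beside -0.01 and -0.01 for all filtered genes. With siHHLA3-1, 2 of the 51 were 2-fold higher, APH1B and DTX3, where 0.973% of all genes were, and 0 were lower, where 0.382% were. With siHHLA3-3, 1 of the 51 was 2-fold higher, DTX3, against 0.807% of all genes, and 2 were lower, NEDD4 and DTX4, against 1.48%. Among the genes without values here were the receptor NOTCH4, the ligands DLL1, DLL4 and DLK1, and the targets HES5, HES7 and HEY2.

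DTX3, NEDD4 and DTX4 belong to the list of ubiquitin ligases and endocytic regulators. Of its 13 measured genes, 1 was 2-fold higher and 0 lower with siHHLA3-1 (0.973% and 0.382% of all genes), and 1 was higher and 2 lower with siHHLA3-3 (0.807% and 1.48% of all genes). NEDD4, a ubiquitin ligase that takes part in Notch trafficking, measured 25.6, 31.0 and 8.78 CPM, or 2.92-fold lower with siHHLA3-3 than with siNC (2.52 to 3.39). DTX4, a deltex ligase that binds Notch, stood at 20.0, 25.2 and 8.89 CPM, or 2.25-fold lower with siHHLA3-3 (1.94 to 2.62). Both were somewhat higher with siHHLA3-1 than with siNC, by 1.21-fold (1.10 to 1.32) and 1.26-fold (1.14 to 1.40). DTX3, another deltex, stood at 9.88, 23.0 and 21.7 CPM, 2.33-fold (2.04 to 2.66) and 2.20-fold (1.92 to 2.53) higher than siNC. MIB2, which ubiquitinates ligands, had log2 ratios to siNC, siHHLA3-1 before siHHLA3-3, of 0.41 and 0.39, and NUMBL, a relative of the Notch inhibitor NUMB, -0.41 and -0.45.

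Of 7 measured genes of ADAM and gamma-secretase cleavage, 1 was 2-fold higher with siHHLA3-1, against 0.973% of all genes, and 0 passed 2-fold with siHHLA3-3, where 0.807% of all genes were higher and 1.48% lower. APH1B, a gamma-secretase subunit, measured 3.58, 9.21 and 6.24 CPM, or 2.57-fold (2.07 to 3.21) and 1.74-fold (1.37 to 2.23) higher. Its more abundant relative APH1A had log2 ratios of 0.03 and -0.42, and the subunit PSENEN 0.18 and 0.35. For APH1A and PSENEN the intervals with siHHLA3-1 included 1. These subunits of the complex thus did not share a direction with siHHLA3-3.

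In the remaining lists, of 3 to 12 measured genes each, 0 genes other than NRARP passed 2-fold with either siRNA. Of all filtered genes 0.973% were higher and 0.382% lower with siHHLA3-1, and 0.807% higher and 1.48% lower with siHHLA3-3. Among the targets, HES4 measured 57.8, 79.9 and 79.7 CPM, or 1.38-fold higher with each siRNA. HES2 was at log2 ratios of -0.16 and -0.64, HES6 at -0.38 and 0.12, and HEYL at 0.13 and 0.34. Of the 7 measured genes of the target list, HES1, HEY1 and NRARP included, 2 were above 0 with siHHLA3-1 and 4 with siHHLA3-3. The shares of all filtered genes above 0 were 48.2% and 48.5%. Medians of the target list were -0.28 and 0.12, beside -0.01 and -0.01 for all filtered genes. The list holds HES and HEY family genes and NRARP, and whether Notch drives each of them in these cells was not tested. The coactivator MAML1 was at 0.07 and 0.20, MAML2 at 0.11 and -0.57, MAML3 at 0.32 and -0.03, and the acetyltransferase KAT2B at -0.36 and -0.00.
Among the RBPJ corepressors CIR1 was at 0.35 and 0.52, TLE3 at -0.39 and -0.42, CTBP2 at -0.03 and -0.29, and HDAC1 at 0.14 and 0.10. The convertase FURIN was at 0.06 and 0.14 and the glycosyltransferase EOGT at -0.04 and -0.06. DLL3 and DLK2 were low, between 2.22 and 2.93 CPM in each library, and the intervals of their ratios to siNC all included 1. With siHHLA3-1 the intervals of HES2, HEYL, MAML2, CTBP2, FURIN and EOGT also included 1. With siHHLA3-3 those of HES6, MAML3, KAT2B and EOGT did.

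**Figure D4:**
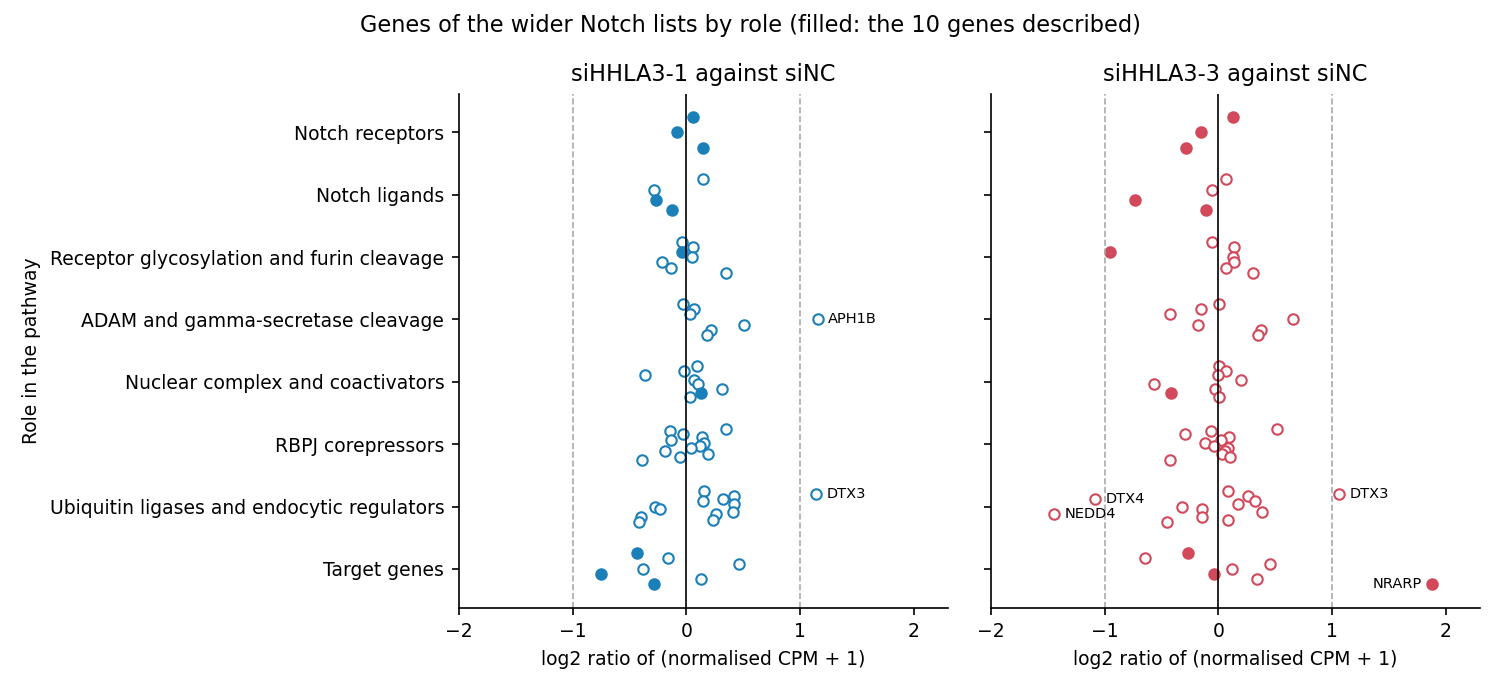
Log2 ratio of (normalised CPM + 1) to siNC for the 61 measured genes of the wider Notch lists, by role, with siHHLA3-1 on the left and siHHLA3-3 on the right. Filled points are the 10 genes described, open points the others, dashed lines mark 2-fold, and genes past it are named: APH1B and DTX3 on the left, and DTX3, DTX4, NEDD4 and NRARP on the right.

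An siRNA can also lower transcripts whose 3' untranslated region (UTR) matches its seed. No siRNA sequence was at hand, so the 7-base words of 3' UTRs annotated in GENCODE were ranked by the ratios of the genes that hold them. This ranking used 10491 genes averaging 5 CPM or more. The word with the lowest ratios was CAGAATG for siHHLA3-1, held by 15.6% of searched genes, and GTGAACT for siHHLA3-3, held by 10.8%. Both words were chosen from these same ratios, so low values among genes that hold them are partly built in. Of the 10 Notch genes, HEY1 alone held CAGAATG and JAG1 alone held GTGAACT. They were the lowest of the 10 with siHHLA3-1 and the second lowest with siHHLA3-3, respectively, while LFNG, the lowest with siHHLA3-3, held neither. NRARP held neither word.

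In the wider lists 8 of 61 genes (13.1%) held GTGAACT, with a median log2 ratio of -0.39 with siHHLA3-3, against 0.06 for the rest. Of all 10491 searched genes 10.8% held it, with medians of -0.24 and, for the rest, -0.01. The searched genes averaged 5 CPM or more and the 61 listed genes 1 CPM or more, so the sets differ in their filter. Such gaps are partly built in, because the word was chosen from these ratios. Both listed genes that were 2-fold lower with siHHLA3-3 were among the 8, NEDD4 with 2 copies and DTX4 with 1. The share of holders among all genes 2-fold lower was not counted. The matches in JAG1 (chr20:10638372-10638401, minus strand), NEDD4 (chr15:55828004-55828033 and chr15:55827527-55827556, minus strand) and DTX4 (chr11:59205990-59206019, plus strand) are shown with their surroundings in the transcripts, as the holders lowest with siHHLA3-3. Positions are on GRCh38 and capitals mark the 7-base word.
JAG1: aaattaattgtGTGAACTtggaagcacacc
NEDD4, first copy: tcaccagccatGTGAACTgaagcagcttac
NEDD4, second copy: atattatgtttGTGAACTatctaagcatga
DTX4: cctatcccgtaGTGAACTgaaaccccaatg
The siHHLA3-3 log2 ratios of these genes were -0.73 for JAG1, -1.45 for NEDD4 and -1.09 for DTX4. Other holders, named here because they hold the word, were HES2 at -0.64, NEURL1B at -0.14, ADAM10 at 0.01 and HDAC2 at 0.03. A further holder is not reported here, and 5 of the 8 were below 0. CAGAATG was held by 16 of 61 genes (26.2%), with a median log2 ratio of -0.03 with siHHLA3-1 against 0.07 for the rest. Of all searched genes 15.6% held CAGAATG, with medians of -0.10 and, for the rest, -0.02. Whether these words account for any of the values was not tested.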

How the data were processed

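Total RNA from H1975 cells was sequenced in 3 libraries, and the authors deposited 1 table with 4 values per gene and library. The deposited counts are whole, unnormalised reads per gene, deposited CPM relate the counts to library size, and TPM and FPKM, also deposited, take gene length into account, per the file headers. The submitters' processing notes name Bowtie2, TopHat2, HISAT and HISAT2 and the build hg19. Counting program, strand setting and annotation are not given in the sources used here. NOTCH1 and JAG1 have an annotated gene on the opposite strand, from which reads cannot be separated if strand was not used.

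Counts were divided by library totals, recovered from counts and CPM, times TMM factors (edgeR 4.0.16, R 4.3.3; 0.978, 1.01 and 1.01). Ratios are log2 of (CPM + 1), and folds are ratios of CPM. With 1 library per group there is no test; levels have exact Poisson and folds exact binomial (Clopper-Pearson) 95% intervals, for counting error only. All 10 members are named, with up to 4 genes of each wider list by size of the mean ratio and every gene past 2-fold; 1 gene named by this rule is not reported here. The members and lists were chosen with earlier results of these data known. Alternatives were DESeq2 1.42.0 size factors, library totals alone, 0.1 as pseudocount, a filter at 5 CPM or none, deposited TPM or FPKM, 1.5-fold, and both siRNAs as 2 samples against 1 with edgeR or DESeq2. Leaving out genes with either 7-base word was added after the data were seen. For each gene the longest 3' UTR of its APPRIS principal transcripts (any transcript where none is tagged) in GENCODE release 29 was read, on the sense strand, and words in fewer than 30 genes were left out. Promoters are from RefSeq. Scripts were tested on simulated data. Python 3.11.15 was used.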

Additional observations from a re-analysis of the deposited data

How the results depend on the processing

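For the 10 genes, 30 log2 ratios were recomputed under 5 alternatives of scaling, pseudocount or unit, and 16 of 150 values moved by more than counting error. The ratios of NRARP with siHHLA3-3 ranged from 1.82 to 1.96 against siNC and from 2.03 to 2.25 against siHHLA3-1, and those of LFNG with siHHLA3-3 from -1.01 to -0.77. A sign changed under library totals, TPM and FPKM for LFNG with siHHLA3-1 and for HEY1 with siHHLA3-3, both within 0.04 of 0. The median of the 10 genes with siHHLA3-1, -0.11, was -0.0556 with library totals, -0.0471 with TPM and -0.0531 with FPKM. A pseudocount of 0.1 brought LFNG past 2-fold with siHHLA3-3, for 2 of 10 genes. At 1.5-fold the counts of the 10 genes were 1 with siHHLA3-1, 3 with siHHLA3-3 and 3 between the siRNAs. Those of the 61 genes of the wider lists were 8 with siHHLA3-3 and 7 between the siRNAs, from 4 and 3 at 2-fold. These 1.5-fold counts of the wider lists were 13.1% and 11.5%, near the 9.22% and 12.2% of all filtered genes. With FPKM, whose values are lower beside the added 1, the wider lists had 0 genes past 2-fold with siHHLA3-1 and 1 with siHHLA3-3. Without genes holding either 7-base word, 2 of 40 genes were 2-fold higher with siHHLA3-3 and 0 lower. Of all filtered genes 0.807% were higher and 1.48% lower. NEDD4 and DTX4 were among those left out. The words were chosen from these same ratios, so the loss of low genes is partly built in. With both siRNAs as 2 samples against 1, the mean ratio counted 1 gene of the wider lists, DTX3, beside 0.735% of all genes. Neither edgeR nor DESeq2 called DTX3 or any other gene of these lists. No paired analysis was possible because each group holds 1 library. The lowest count among the 10 genes was 267, for LFNG with siHHLA3-3, whose counting interval of 1.75 to 2.34-fold lower spans 2-fold; the spread between replicates is unknown.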

Other observations

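The nearest filtered genes on either side of NRARP on chromosome 9 all had smaller ratios with siHHLA3-3 than NRARP itself. All but TUBB4B were above 0 there, beside 48.5% of all filtered genes. The log2 ratios, siHHLA3-1 before siHHLA3-3, were 0.34 and 0.99 for TOR4A, 0.45 and 0.65 for NOXA1, and 0.64 and 0.58 for SLC34A3. EXD3 was at 0.28 and 0.49, PNPLA7 at 0.73 and 0.49, and NSMF at -0.22 and 0.26. SLC34A3 and PNPLA7 were thus higher with siHHLA3-1 than with siHHLA3-3, while NRARP was at -0.28 with siHHLA3-1. SLC34A3, NOXA1 and PNPLA7 had low levels, between 2.74 and 8.14 CPM. EXD3, 4645 bases away, measured 6.36, 7.94 and 9.37 CPM in the siNC, siHHLA3-1 and siHHLA3-3 libraries, and TOR4A, 17841 bases away on the other side, at 12.2, 15.8 and 25.3 CPM. NELFB, a subunit of the negative elongation factor, had log2 ratios of -0.14 and 0.11, and the tubulin gene TUBB4B -0.62 and -0.47. NOTCH1 lies on the same chromosome, 754696 bases from NRARP.

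Among 11216 other genes averaging 5 CPM or more, 0 had a pair of log2 ratios within 0.1 of that of NRARP (-0.28 with siHHLA3-1 and 1.88 with siHHLA3-3). The nearest was VGF, a neuropeptide precursor, at -0.35 and 1.97, a distance of 0.108. GDAP1, a mitochondrial outer membrane protein, followed at -0.21 and 1.38, and BSN, a presynaptic scaffold, at 0.22 and 2.02. With 3 libraries such likeness rests on 2 ratios that share a control.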
